A study of Mus musculus with 4 samples.

Results

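The Notch pathway genes described here are 10 genes, 4 receptors (Notch1, Notch2, Notch3 and Notch4), 4 ligands (Dll1, Dll4, Jag1 and Jag2) and 2 target genes (Hes1 and Hey1). They were chosen by name, and every transcript row that carries one of these names was summed per gene, which gave 20 transcripts of the 75959 transcripts listed and 10 of the 21878 genes. RNA came from C3H10T1/2, a mouse mesenchymal stem cell line that can turn into muscle, fat and cartilage cells. The untreated group held 2 samples of this line (replicates 1 and 2), and the 5-AZA group held 2 samples (replicates 101 and 102) exposed to 20 μM 5-azacytidine, a cytidine analogue that lowers DNA methylation, for 72 hours and then kept for 21 days in fresh medium. How long the untreated samples were kept is not given, so the drug and the time in culture cannot be told apart. Levels are in FPKM, fragments scaled by transcript length and library size, so levels of different genes are compared per length. The depth behind a single value is unknown.

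Notch receptors sit in the cell membrane and bind ligands of the Delta-like and Jagged families on a neighbouring cell. Binding leads to cleavage of the receptor by Adam10 and then by gamma-secretase, and the freed intracellular part enters the nucleus, where it joins the DNA-binding protein Rbpj and a Mastermind coactivator and switches on genes such as the Hes and Hey repressors. In skeletal muscle the pathway is known for holding progenitor cells back from differentiation, and in blood vessels Notch4 and Dll4 are known from endothelial cells and Notch3 from mural cells.

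Of the 10 genes, Notch3, Dll1, Jag2 and Hes1 were higher after 5-AZA. Notch1 had a lower level after 5-AZA that stayed short of a 2-fold change, while for Notch2 and Jag1, which had the highest receptor and ligand levels, no difference was detected. Notch4, Dll4 and Hey1 were close to 0 in every sample. A gene was tested where its mean over the 4 samples was at least 0.1 FPKM, and it was called where the limma fit over all 13199 genes tested gave a Benjamini-Hochberg adjusted p-value below 0.05 and a change above 2-fold on the log2(FPKM + 0.1) scale, which understates the change of low genes. Of the 7 members tested, 4 were called higher and 0 lower (limma; 4 up and 1 down with p under 0.05 before adjustment). Of all 13199 genes tested, 13.1% were called higher and 1.32% lower (limma; 3220 up and 1464 down with p under 0.05 before adjustment). Dll1, with an untreated mean of 0.0525 FPKM, passed the limit on low values only through its 5-AZA values. The median log2 fold change was 1.65 over these 7 members, the value of Jag2, and 0.05 over all genes tested. The members were chosen with earlier results of these data known, so these counts and medians only describe them. Quantile normalization changed the split over all genes from 1724 higher and 174 lower to 1041 and 886, and it moved the median of all genes by -0.17 on the log2 scale. Under it 2 members, Notch3 and Hes1, were called higher.

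**Figure D1:**
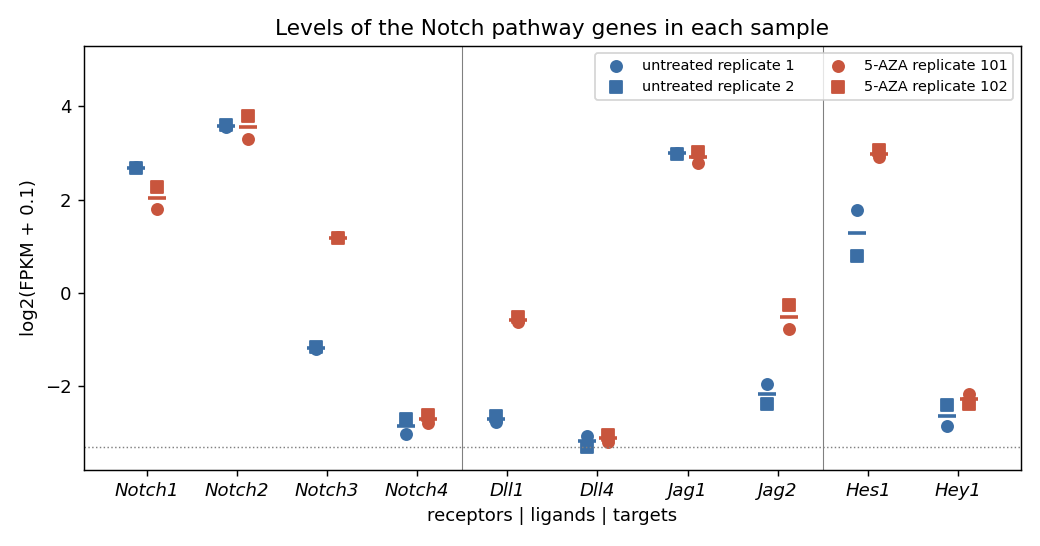
Level of each Notch pathway gene in each sample, as log2(FPKM + 0.1). Points are the 4 samples, short bars are the means of the 2 samples of a group, and the dotted line is the value of a gene listed at 0 FPKM. The 5-AZA points of Notch3, Dll1, Jag2, Hes1 and Hey1 lie above both untreated points, as for 36.8% of all genes tested. Those of Notch1 lie below them, as for 25.4%.

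Among the receptors, Notch3 had the largest fold change. It was listed at 0.332 and 0.344 FPKM in untreated replicates 1 and 2 and at 2.204 and 2.14 FPKM in 5-AZA replicates 101 and 102. The groups were far apart against the narrow spread within each of them. On the log2 scale, the fold change was 2.38 (standard error, SE, 0.25, 95% interval 1.80 to 2.95, limma, adjusted p = 1.85e-04), and the means of the deposited values, 0.338 ± 0.00826 and 2.17 ± 0.0446 FPKM (SD, n = 2 in each group), stood at a ratio of 6.43. Notch3 was called under each of the 12 other settings tried.

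Notch1, a receptor needed in many developing tissues, was listed at 6.39 and 6.26 FPKM in the untreated samples and at 3.37 and 4.72 FPKM in 5-AZA replicates 101 and 102. Both 5-AZA values lay below both untreated values, an arrangement shared by 25.4% of all genes tested. Notch1 had a log2 fold change of -0.65 (SE 0.19, 95% interval -1.09 to -0.22, limma, adjusted p = 0.0373), which did not reach the 2-fold limit. The adjusted p ran from 0.0111 to 0.176 over the 12 other settings, and with 1 sample left out it ran from 0.0794 to 0.156.

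Notch2 was the member with the highest level in each sample. It was listed at 11.7 and 12.1 FPKM in the untreated samples and at 9.82 and 13.7 FPKM in the 5-AZA samples, which enclose the untreated values. Its log2 fold change was -0.04 (95% interval -0.42 to 0.34, limma, adjusted p = 0.908). Notch4, the receptor known from endothelium, was listed at 0.0226 and 0.0529 FPKM in the untreated samples and at 0.0436 and 0.0615 FPKM in the 5-AZA samples, under the limit for a test.

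The makeup of the receptor RNA differed between the groups accordingly. Summed over the 4 receptors the level was 18.5 and 18.8 FPKM in the untreated samples and 15.4 and 20.7 FPKM in 5-AZA replicates 101 and 102, so the sums overlap. Notch3 took 1.80% and 1.83% of that sum in the untreated samples and 14.3% and 10.4% in the 5-AZA samples. Notch1 took 34.6% and 33.4% in the untreated samples and 21.8% and 22.9% in the 5-AZA samples. Notch2 took between 63.5% and 66.5% in all 4 samples, and Notch4 never more than 0.298%. Shares of 1 sum move against each other, so they were not tested.

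Dll1, a Delta-like ligand that activates Notch on adjacent cells, was listed at 0.0465 and 0.0585 FPKM in the untreated samples and at 0.545 and 0.592 FPKM in the 5-AZA samples. Neither untreated value came near the 5-AZA values, but all 4 are low. The log2 fold change was 2.13 (SE 0.35, limma, adjusted p = 0.00218), while the means of the deposited values stood at a ratio of 10.8. With a pseudocount of 1 FPKM the log2 fold change of Dll1 was 0.58, and after quantile normalization it was 0.83 (limma, adjusted p = 0.0675, the highest of its 11 other settings, whose lowest was 9.62e-04), and neither passed the rule. With a pseudocount of 0.01 FPKM it was 3.22.

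Jag2, a Jagged-type ligand, was listed at 0.156 and 0.0896 FPKM in the untreated samples and at 0.479 and 0.728 FPKM in 5-AZA replicates 101 and 102. The groups did not overlap, though each of them spread widely. Jag2 had a log2 fold change of 1.65 (SE 0.36, 95% interval 0.82 to 2.49, limma, adjusted p = 0.0108). The call was lost without 5-AZA replicate 101 (log2 fold change 1.91, limma, adjusted p = 0.0854) or without 5-AZA replicate 102 (1.40, limma, adjusted p = 0.126), and over the 11 other settings the adjusted p ran from 0.0104 to 0.340 with 5 calls. With a pseudocount of 1 FPKM the log2 fold change of Jag2 was 0.51, and after quantile normalization it was 0.40.

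Jag1, the main Jagged ligand of these cells by level, was listed at 7.85 and 7.84 FPKM in the untreated samples and at 6.80 and 8.07 FPKM in the 5-AZA samples. The untreated values fall between the 5-AZA values. The log2 fold change was -0.08 (95% interval -0.41 to 0.25, limma, adjusted p = 0.742). Dll4, a ligand known from vessel sprouting, was listed at 0.0192 and 0 FPKM and at 0.00887 and 0.0208 FPKM, under the limit for a test and without a separation of the groups.

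Summed over the 4 ligands the level was 8.07 and 7.99 FPKM in the untreated samples and 7.83 and 9.41 FPKM in the 5-AZA samples. Jag1 took 97.3% and 98.1% of it in the untreated samples and 86.8% and 85.7% in the 5-AZA samples. Dll1 took 0.577% and 0.733% in the untreated samples and 6.96% and 6.29% in the 5-AZA samples. Jag2 took 1.93% and 1.12% in the untreated samples and 6.12% and 7.74% in the 5-AZA samples.

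**Figure D2:**
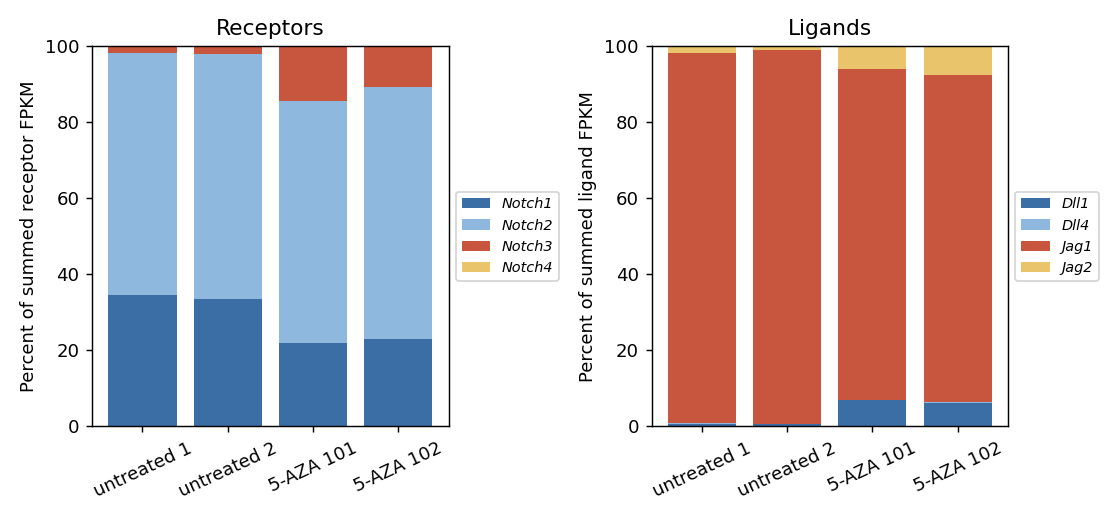
Percent of the summed receptor FPKM (left) and of the summed ligand FPKM (right) taken by each gene, 1 bar per sample. In the 5-AZA samples the bars hold more Notch3 (14.3% and 10.4%), Dll1 and Jag2 and less Notch1 and Jag1 than in the untreated samples, and Notch4 and Dll4 are too low to see.

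The promoters of the called ligands and of Notch3 are shown since 5-AZA acts on DNA methylation, which in mouse sits mainly on cytosines of CG pairs. Methylation itself was not measured in these samples. The runs below hold the 250 bases before each start listed by RefSeq on GRCm38.p6, written in the direction of the gene, with CG pairs in capitals. Notch3 lies on the minus strand (chr17:32166891-32167140), as do the starts of Dll1 (chr17:15375824-15376073 and chr17:15376933-15377182) and Jag2 (chr12:112929496-112929745).
Notch3: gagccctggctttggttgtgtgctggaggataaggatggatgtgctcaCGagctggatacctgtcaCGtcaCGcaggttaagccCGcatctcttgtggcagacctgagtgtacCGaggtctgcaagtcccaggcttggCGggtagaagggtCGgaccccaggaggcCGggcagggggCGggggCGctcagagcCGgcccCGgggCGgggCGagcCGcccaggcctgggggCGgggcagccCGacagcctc
Dll1, chr17:15375824-15376073: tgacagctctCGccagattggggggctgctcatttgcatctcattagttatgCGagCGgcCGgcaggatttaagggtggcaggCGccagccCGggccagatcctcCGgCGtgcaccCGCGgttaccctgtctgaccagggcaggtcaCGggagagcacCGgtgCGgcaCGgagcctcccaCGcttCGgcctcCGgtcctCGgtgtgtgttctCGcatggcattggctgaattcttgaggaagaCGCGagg
Dll1, chr17:15376933-15377182: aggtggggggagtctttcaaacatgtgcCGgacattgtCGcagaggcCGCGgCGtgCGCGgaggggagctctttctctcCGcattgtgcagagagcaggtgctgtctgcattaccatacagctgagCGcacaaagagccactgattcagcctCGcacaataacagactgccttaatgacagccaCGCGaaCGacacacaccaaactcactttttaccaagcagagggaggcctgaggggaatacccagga
Jag2: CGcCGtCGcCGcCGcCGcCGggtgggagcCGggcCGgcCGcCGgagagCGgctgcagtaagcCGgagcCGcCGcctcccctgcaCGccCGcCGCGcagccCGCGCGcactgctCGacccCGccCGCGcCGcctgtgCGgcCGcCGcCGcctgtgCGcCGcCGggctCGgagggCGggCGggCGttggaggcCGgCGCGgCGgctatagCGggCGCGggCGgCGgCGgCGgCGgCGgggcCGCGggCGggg
The printed stretch of Notch3 holds 17 CG pairs, those of Dll1 hold 21 and 13, and that of Jag2 holds 54. In windows of 300 bases that add the 50 bases after the start, the count was 25 for Notch3, 24 and 15 for Dll1 and 63 for Jag2, against a median of 7 over all 32851 windows listed. It was 23 for Notch1, 41 for Notch2, 22 for Jag1, 17 for Dll4 and 5 for Notch4. The core sequence TGGGAA bound by Rbpj, searched on both strands, was in none of the 9 member windows and in 25.6% of all windows. Windows were given for 8 of the 10 members, not for Hes1 and Hey1.

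Hes1, a basic helix-loop-helix repressor and a direct target of Notch signaling that other pathways also switch on, was listed at 3.31 and 1.62 FPKM in untreated replicates 1 and 2 and at 7.45 and 8.22 FPKM in the 5-AZA samples. Both 5-AZA values lay above both untreated values, an arrangement held by 36.8% of all genes tested, and the untreated samples differed from each other more than the 5-AZA samples did. For Hes1 the log2 fold change was 1.71 (SE 0.29, 95% interval 1.05 to 2.37, limma, adjusted p = 0.00281). Mean levels were 2.47 ± 1.19 and 7.84 ± 0.548 FPKM (SD, n = 2 in each group). Its log2 fold change was 2.202 without untreated replicate 1 and 1.22 without untreated replicate 2, and Hes1 was called in both cases. The call was lost without 5-AZA replicate 101 (limma, adjusted p = 0.206) and without 5-AZA replicate 102 (limma, adjusted p = 0.233), with log2 fold changes of 1.78 and 1.64. Over all 12 other settings the adjusted p ran from 9.55e-08 to 0.233, with 9 calls.

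Hey1, the other target among the members and a relative of Hes1, was listed at 0.0365 and 0.0866 FPKM in the untreated samples and at 0.120 and 0.0908 FPKM in the 5-AZA samples. Both 5-AZA values of Hey1 lay above both untreated values, the nearest being 0.0908 and 0.0866 FPKM. Its mean of 0.0835 FPKM was under the limit for a test, and it stayed far below Hes1 in each sample. Without that limit, the log2 fold changes of Hey1, Notch4 and Dll4 were 0.36, 0.15 and 0.07, with adjusted p-values of 0.389, 0.565 and 0.762 (limma).

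In the untreated samples the members fell in the order Notch2, Jag1, Notch1, Hes1, Notch3, Jag2, Hey1, Dll1, Notch4 and Dll4 by mean FPKM. Neighbours in this order overlapped only for Hey1 with Dll1 and for Dll1 with Notch4. After 5-AZA the order was Notch2, Hes1, Jag1, Notch1, Notch3, Jag2, Dll1, Hey1, Notch4 and Dll4, with overlap only of Hes1 with Jag1 and of Jag2 with Dll1. Hes1 thus stood behind Notch1 in both untreated samples and ahead of it in both 5-AZA samples.

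The other 46 genes of the pathway were taken from a list by role. All 46 are in the table and 39 passed the limit on low values. Of these 39, 4 were called higher and 0 lower (limma; 8 up and 6 down with p under 0.05 before adjustment). Of all 13199 genes tested, 13.1% were called higher and 1.32% lower (limma; 3220 up and 1464 down before adjustment). Among the called genes, Heyl, Neurl1a and Mfng had untreated means of 0.0252, 0.0816 and 0.0136 FPKM. They passed the limit on low values only through their 5-AZA values. The median log2 fold change of the 39 was -0.05. Receptor cleavage had 0 of 9 genes called (limma; 1 up and 2 down with p under 0.05 before adjustment), the nuclear complex had 0 of 6 (2 up and 1 down) and the further ligands and ligand-like proteins had 0 of 3 (0 up and 1 down).

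Heyl, a repressor of the Hey family, had the largest change of the list. It was listed at 0.0221 and 0.0284 FPKM in the untreated samples and at 1.51 and 2.44 FPKM in 5-AZA replicates 101 and 102. The log2 fold change was 4.01 (SE 0.34, limma, adjusted p = 5.47e-05), and Heyl was called under each of 12 other settings. Its relatives were spread out, with Hes6 between 14.4 and 26.9 FPKM over the samples (log2 fold change 0.56, limma, adjusted p = 0.0345) and Hey2 at 0.265 and 0.409 against 0.116 and 0.0922 FPKM (log2 fold change -1.08, limma, adjusted p = 0.0689). Hes3 and Hes5 were listed at 0 in all 4 samples, and Hes2 and Hes7 were under the limit.

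Neurl1a, a ubiquitin ligase that acts on Notch ligands, was listed at 0.0919 and 0.0714 FPKM in the untreated samples and at 1.33 and 1.70 FPKM in the 5-AZA samples. Its log2 fold change was 3.14 (SE 0.31, limma, adjusted p = 1.29e-04). Mib1, the ligand ubiquitin ligase with the highest level, lay between 17.7 and 21.96 FPKM in all samples (log2 fold change -0.21, limma, adjusted p = 0.228).

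Mfng, a Fringe glycosyltransferase that modifies the extracellular part of Notch and so tunes its response to Delta-like and Jagged ligands, was listed at 0.0272 and 0 FPKM in the untreated samples and at 0.694 and 0.689 FPKM in the 5-AZA samples. The log2 fold change was 2.81 (SE 0.36, limma, adjusted p = 5.74e-04), and without 5-AZA replicate 102 the adjusted p was 0.0507 (limma; 1.25e-04 to 0.0507 over 11 other settings). With a pseudocount of 1 FPKM the log2 fold change of Mfng was 0.74, short of the limit, and with 0.01 FPKM it was 5.18. The related Fringe genes Lfng and Rfng had log2 fold changes of -0.15 and 0.32 and were not called. Poglut1, the most abundant of the glycosylation genes, lay between 17.9 and 24.3 FPKM (log2 fold change -0.26, limma, adjusted p = 0.160).

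Dtx4, a Deltex-family ubiquitin ligase, was listed at 2.12 and 2.13 FPKM in the untreated samples and at 4.67 and 4.56 FPKM in the 5-AZA samples. Its log2 fold change of 1.08 (SE 0.175, limma, adjusted p = 0.00219) lay just above the 2-fold limit, and it was called under 7 of 12 other settings. It lost the call without 5-AZA replicate 101 (limma, adjusted p = 0.0835) and without 5-AZA replicate 102 (limma, adjusted p = 0.0872). Itch, the most abundant gene of that role, lay between 20.1 and 22.3 FPKM (log2 fold change -0.03, limma, adjusted p = 0.863).

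Further genes of the list had an adjusted p-value below 0.05 without reaching 2-fold, and those given here were singled out after their values were seen. Rbpj, the DNA-binding partner of the freed receptor, was listed at 18.5 and 15.5 FPKM in the untreated samples and at 27.3 and 24.5 FPKM in the 5-AZA samples, and the fold change on the log2 scale was 0.60 (limma, adjusted p = 0.00849). Hes6 is given above. Adam10, the protease of the first cleavage after ligand binding, had a log2 fold change of -0.51, and the gamma-secretase gene Aph1b had -0.62. The coactivator Maml2 had -0.62 and the ligand-like Dlk2, which also had the highest level of its role, had -0.95. Among the genes with the highest level of their role, Psenen of gamma-secretase lay between 43.1 and 50.4 FPKM (limma, adjusted p = 0.998) and Snw1 of the nuclear complex had a log2 fold change of 0.24 (limma, adjusted p = 0.112).

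**Figure D3:**
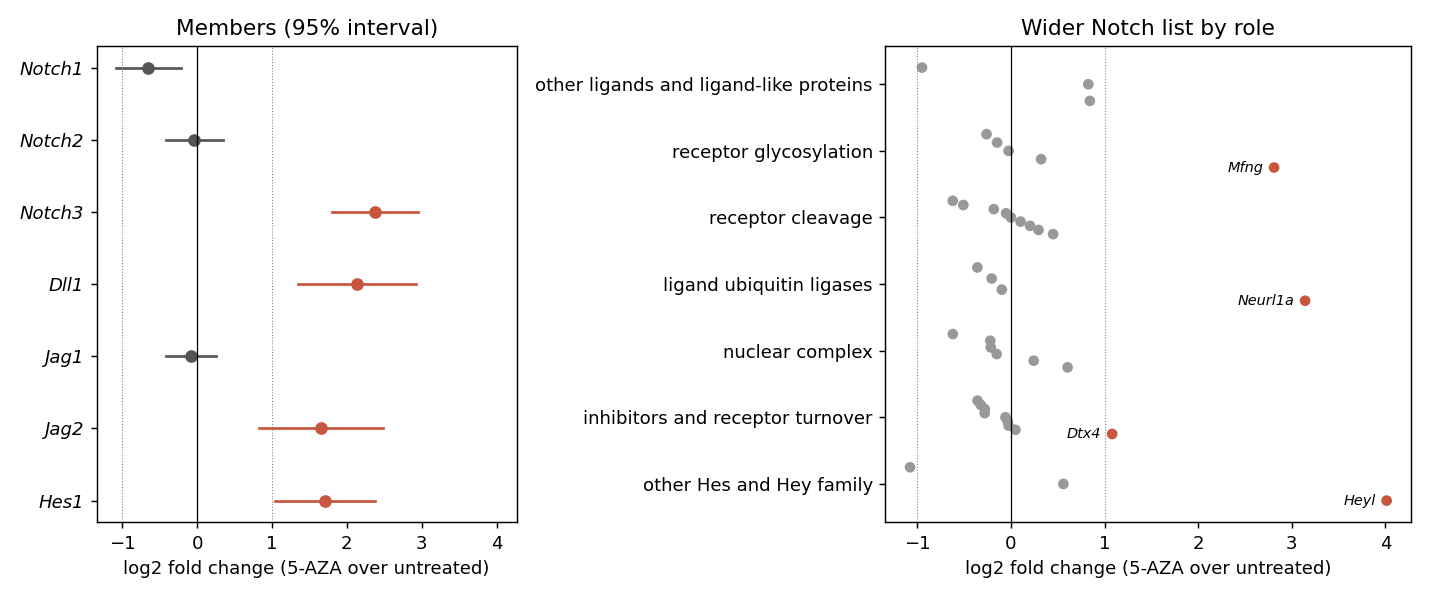
Log2 fold change of 5-AZA over untreated for the 7 members tested (left, bars are 95% intervals) and for the 39 genes of the wider Notch list tested, by role (right). Red points passed the adjusted p-value and the 2-fold limit, dotted lines mark the 2-fold limit in each direction, and genes under the limit on low values are left out. Outside Notch3, Dll1, Jag2, Hes1, Mfng, Neurl1a, Dtx4 and Heyl, the points lie between -1.08 and 0.84.

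Markers of several cell types also differed between the groups. For comparison, 13.1% of all genes tested were called higher and 1.32% lower. All 6 skeletal muscle markers were called higher, and their summed level was 0.919 and 0.582 FPKM in the untreated samples and 304 and 499 FPKM in the 5-AZA samples. Of these, Myod1, Myog, Myh3 and Ckm passed the limit on low values only through their 5-AZA values. All 4 adipocyte markers were called higher as well, with sums of 31.4 and 14.2 FPKM in the untreated and 1056 and 1441 FPKM in the 5-AZA samples. Fabp4 alone held 22.9 and 9.66 FPKM of these sums in the untreated samples and 887 and 1196 FPKM in the 5-AZA samples. The satellite cell markers Pax7, Myf5 and Calcr were listed at 0 in all samples. Of 10 endothelial markers, 5 were tested and 3 (Cdh5, Tek and Emcn) called higher. Cdh5 and Emcn passed the limit on low values only through their 5-AZA values. Pecam1 and Vwf were not called, with log2 fold changes of 0.91 and -0.27 (limma, adjusted p = 0.152 and 0.669). The sums were 0.634 to 0.798 FPKM in the untreated and 3.61 to 4.29 FPKM in the 5-AZA samples. Tek and Emcn held most of the 5-AZA sums, and Kdr, Tie1 and Sox17 were listed at 0 throughout. Of 6 mural markers, 4 were tested. Cnn1, which passed the limit only through its 5-AZA values, was called higher, and Cspg4 lower (20.5 and 18.1 against 4.85 and 6.37 FPKM). Pdgfrb and Acta2 were not called. The sums, most of which was Acta2, were 241 and 242 FPKM in the untreated and 242 and 325 FPKM in the 5-AZA samples. Of 5 macrophage markers, 2 were tested. Cd68 was called higher and Lyz2 was not (log2 fold change -0.22, limma, adjusted p = 0.707). Adgre1 was at 0 throughout. The sums ran from 2.13 to 3.20 FPKM in the untreated and 3.20 to 5.19 FPKM in the 5-AZA samples. The mesenchymal markers held 6 of 8 genes at 1 FPKM or more in all samples. Their sums were 2625 and 2727 FPKM in the untreated and 1648 and 1839 FPKM in the 5-AZA samples. Most of these sums was Vim, at 2268 and 2406 against 1178 and 1380 FPKM (log2 fold change -0.87), and Col1a1 also had a log2 fold change below 0, while those of Thy1, Eng, Cd44, Pdgfra and Ly6a were above 0. Among these markers Nt5e was listed at 0 and Thy1 at 0.578 and 0.785 FPKM in the untreated samples, and Thy1 was called higher. The part of such changes in cell makeup in the values of the Notch genes was not tested, and in bulk RNA more cells of a type and more RNA per cell cannot be told apart.

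By transcript, none of the 10 member transcripts tested was called (limma; 4 up and 1 down with p under 0.05 before adjustment, lowest adjusted p = 0.0848), beside 2.1% of all 35557 transcripts called higher and 0.262% called lower. The other 10 were under the limit. Hes1 rests almost wholly on NM_008235.2, which held at least 97.7% of its FPKM in each sample. Its log2 fold change was 1.72 with an adjusted p of 0.0848 (limma). Notch1 and Notch2 are listed with 1 transcript each. NM_008716.2 of Notch3 was listed at 0.153 and 0.304 FPKM in the untreated and at 1.66 and 1.57 FPKM in the 5-AZA samples (log2 fold change 2.42, limma, adjusted p = 0.0978), and XM_017317293.1 at 0.179 and 0.0398 against 0.544 and 0.567 FPKM (limma, adjusted p = 0.294). In Jag1, NM_013822.5 held 81.4% to 85.7% of the FPKM.

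The transcripts of the low ligands were less even. NM_007865.3 of Dll1 held 59.7% and nearly 0% of the gene's FPKM in the untreated samples and 47.8% and 78.1% in the 5-AZA samples. For Jag2, NM_010588.2 held 70.9% in 5-AZA replicate 101 and 0.355% in replicate 102, and XM_006515486.2 held 19.9% and 68.6%.

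Notch2 was the only member listed as host of a circular RNA. circRNA_2739, of type sense-overlapping and 719 bases long, spans chr3:98070860-98082039 on the plus strand in the authors' coordinates, and the Notch2 transcript span listed beside it is the same as in GRCm38.p6. It was listed at 0.0430 RPM (junction reads scaled by library size) in untreated replicate 1, at 0.0639 RPM in 5-AZA replicate 102 and at 0 in the other two samples. It was thus seen in 1 sample of each group, and its log2 difference of 0.20 (SE 1.06, 95% interval -3.05 to 3.45) shows no separation. Of the 1360 circRNAs tested, 0 were called (limma, with 251 at p under 0.05 before adjustment). The lack of a call is thus not particular to circRNA_2739.

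**Figure D4:**
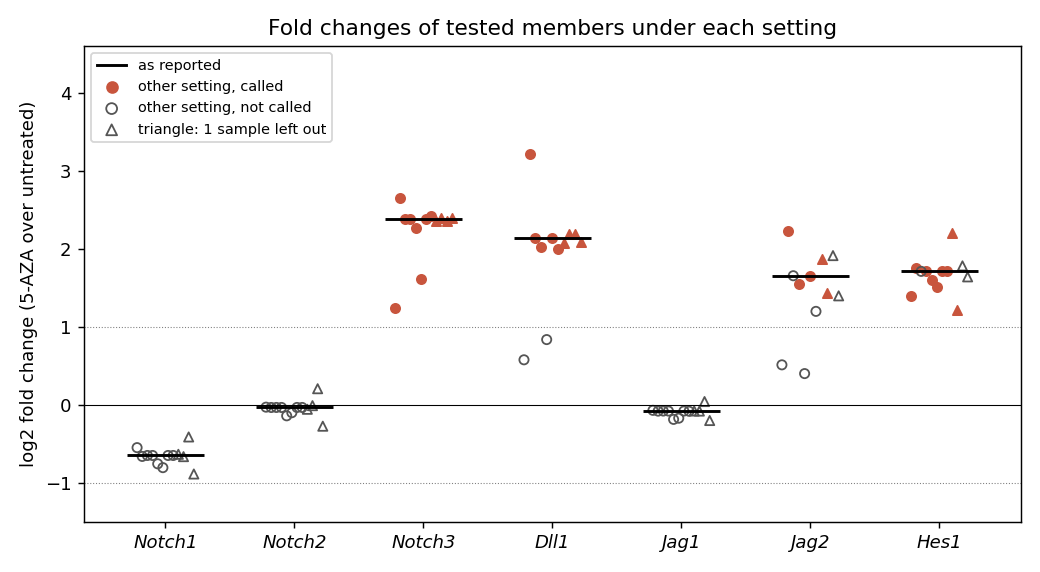
Log2 fold change of each tested member as reported (black bars) and under the other settings (points, with triangles for fits without 1 sample), where red marks a call and dotted lines the 2-fold limit. Notch3 is red throughout, whereas Dll1, Jag2 and Hes1 each have settings without a call, and Notch1, Notch2 and Jag1 are never called.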

How the data were processed

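RNA of 2 untreated and 2 5-AZA samples was depleted of ribosomal RNA, sequenced with a stranded protocol and processed by the authors. Their notes list Trimmomatic, HISAT2, Bowtie2 2.2.9, eXpress 1.5.1 and the build mm9, without roles. The Notch2 transcript span listed with the circRNA equals that of GRCm38.p6, so which build was used for mapping is unclear. The authors deposited FPKM values per RefSeq transcript and RPM values per circRNA. Annotation columns were used for gene names and for the type, length and coordinates given for the circRNA and its host, and lncRNA values were not used. The reads behind an FPKM cannot be counted, so the count model named in the study's methods could not be run.

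Transcripts were summed per gene, and log2(FPKM + 0.1) of genes with a mean of at least 0.1 FPKM was fitted with limma 3.58.1 (eBayes with trend, two-sided) in R 4.3.3 with Benjamini-Hochberg adjustment over all genes. Transcripts were fitted alike, and circRNAs seen in at least 2 samples with the smallest RPM, 0.0213, as the pseudocount. The fit was tested on simulated data. With 2 samples against 2, an exact two-sided permutation test cannot go below 0.333. The study calls the samples of a group biological repeats, but how their cultures were kept apart is not stated. The p-values thus rest on the spread between these samples, and eBayes draws the variance of each gene toward that of genes of similar level. The standard error of a gene is therefore not that of its own 4 values alone. Without the trend, the adjusted p of Hes1 was 0.0340 (limma).

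The members and lists were chosen with earlier results of these data known. Named were all members, called genes of the list, the most abundant gene of each role, for each member its most abundant transcript and any called, and circRNAs hosted by members, and other genes named were chosen after their values were seen. The values of 1 gene of the list are not reported here. Promoters came from RefSeq (GRCm38.p6). The search for CG pairs was added after the data were seen. Other settings tried were pseudocounts, limits, scalings, eBayes without trend and the omission of each sample, for genes and for single transcripts. In a further setting the most abundant transcript of each gene replaced the sum.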

Additional observations from a re-analysis of the deposited data

How the results depend on the processing

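In the fits per gene, Notch3, Heyl and, where tested, Neurl1a were called under every setting tried. Notch1, Notch2 and Jag1 were called under none. When single transcripts were fitted, no member transcript was called. NM_008716.2 of Notch3 had an adjusted p of 0.0978 in that fit and 0.0127 where only the most abundant transcript of each gene was fitted (limma). The 4 calls among the members fell to 2 with a pseudocount of 1 FPKM, without a limit on low values, with a mean of at least 1 FPKM and after quantile normalization. With a mean of at least 1 FPKM, Dll1 and Jag2 were no longer tested. The 4 calls of the wider list fell to 2 with a pseudocount of 1 FPKM and with a mean of at least 1 FPKM, and its calls in the lower direction, 0 as reported, became 1 with a pseudocount of 0.01 FPKM, 1 without the trend, 2 after median centring and 4 after quantile normalization. Over all genes, 875 higher and 86 lower were called with a pseudocount of 1 FPKM, 83 lower without a limit, 845 higher with a mean of at least 1 FPKM, and 1041 higher and 886 lower after quantile normalization. Median centring moved the median of all genes by -0.11. With 1 sample left out, where the lone sample is assumed to vary like those of the other group, 2 to 4 members and 2 to 4 genes of the wider list were called higher, 785 to 1616 of all genes higher and 50 to 181 lower. Without 5-AZA replicate 101, 977 genes were called higher and 50 lower, and without replicate 102, 785 and 66. Without 5-AZA replicate 101, Notch2 and Jag1 turned to 0.20 and 0.040 on the log2 scale (ranges with 1 sample left out -0.28 to 0.20 and -0.20 to 0.040; adjusted p = 0.215 and 0.780, limma). Over all their settings these adjusted p-values ran from 0.174 to 0.982 for Notch2 and from 0.219 to 0.893 for Jag1. The cause was not tested. No paired analysis was possible because the groups share no replicate numbers. The number of samples limits every result.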
